A study of Bos taurus with 14 samples.

Results

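The genes described here are the core switch of mitochondrial cell death and its initiator caspases: the anti-apoptotic proteins BCL2, BCL2L1 (Bcl-xL) and MCL1, the pore-forming effectors BAX and BAK1, the BH3-only activator BID, and the initiator caspases CASP8 and CASP9. Members were all probe sets of a bovine Affymetrix expression array whose single gene symbol in the platform annotation was one of these 8 genes. A probe set is a group of short oligonucleotides on the array that together report 1 transcript. The rule found 10 of the 24016 probe sets tested, and they covered 6 of the 8 genes. BCL2 had 5 probe sets, and BCL2L1, MCL1, BAX, BAK1 and CASP9 had 1 each. BID and CASP8 had no probe set with that single symbol and were not analysed here. For all 10 probe sets the annotation's Entrez number led to the same symbol in RefSeq. No probe sequence was compared, so which BCL2 probe sets match the BCL2 transcript was not tested.

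RNA was measured in 14 whole Holstein conceptuses, the embryo with its extraembryonic membranes, flushed on Day 15 of gestation, which in cattle falls in the period when the trophoblast elongates. Donor cows had been inseminated with semen of 1 bull, and their embryos were graded by morphology on Day 6.5 and transferred by grade to recipient heifers, 2 to 6 per recipient, so all groups share the breed, the sire, superovulation of the donors and transfer. Grade 1 embryos gave 11 conceptuses, of which 5 were long (1 male, 4 female), 5 short (2 male, 3 female) and 1 (male) had no recorded length. Grade 3 embryos gave the other 3 (2 male, 1 female). No embryo carried a modified allele or received an agent according to the labels. For Grade 1 short replicate 1 the labels disagree on the length, and it was counted as short because that gives the 5 and 5 of the stated design.

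In the mitochondrial pathway, BAX and BAK1 assemble into pores in the outer mitochondrial membrane unless BCL2, BCL2L1 or MCL1 bind them or the BH3-only proteins that activate them. Through these pores cytochrome c reaches the adaptor APAF1, and the resulting apoptosome activates CASP9, which in turn cleaves the executioner caspases. The death receptor route starts at CASP8, which can join the mitochondrial route by cleaving BID. Dying cells occur in normal cattle blastocysts, and morphological grading of cattle embryos weighs how much of the cell mass looks intact.

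The values are log2 signals. Array medians lay between 5.62 and 5.716, and any pair of arrays correlated at 0.9838 to 0.9967 across probe sets. The trophoblast genes interferon tau (IFNT2), KRT18 and PAG2 had mean log2 signals of 14.53, 14.47 and 13.81, near the top of the array's range. In the lowest 25% of probe sets by mean signal, which ended at 3.905, lay 0 of 6 measured trophectoderm markers, 2 of 8 blood and immune markers (PTPRC and ITGAM) and 4 of 7 erythroid markers (HBA, SLC4A1, EPB42 and AHSP). So did 4 of 6 measured endometrial and 3 of 6 endothelial markers. Markers of other cell types above that bound included the endometrial marker MUC1 (6.68), CD8A (6.46), CD68 (6.41) and HBM (5.40). On the first principal component of all arrays, short conceptuses scored from -38.4 to -1.829 and long ones from 5.89 to 31.58. Signal depends on the probes as well as on the RNA, so the members' differences below are taken within a probe set.

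The first question was whether long and short conceptuses from good embryos differed in the death machinery. BCL2L1 and 1 BCL2 probe set were lower in long conceptuses, another BCL2 probe set was higher, and for MCL1, BAX, BAK1 and CASP9 no difference passed the test. Changes were small: 1.32-fold for BCL2L1, 1.28-fold for the lower and 1.18-fold for the higher BCL2 probe set. In all, 3 of 10 member probe sets passed (adjusted p in limma under 0.05 over all probe sets), against 6.57% of all 24016. This share is a description only, because the members were chosen with earlier results of these data known. BCL2 also supplied 5 of the 10 probe sets and 2 of the 3 that passed, with opposite signs. Of them 1 was higher in long conceptuses (background 2.70%) and 2 were lower (background 3.87%). At an unadjusted p under 0.05 there were 5 of 10 members, against 22% of all probe sets. With the title prefix of the samples as a block 0 of the 10 passed in limma (adjusted p = 0.183 for BCL2L1, 0.141 for Bt.7135.1.S1_at and 0.266 for Bt.18233.1.A1_s_at), and 112 of all probe sets did. The median log2 difference was -0.019 over the members and -0.020 over all probe sets. In a whole conceptus, fewer cells of a type and less RNA per cell cannot be told apart.

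BCL2L1 encodes Bcl-xL, which holds back BAX and BAK1 at the mitochondrion. Its log2 signals were 6.69, 6.61, 6.49, 6.66 and 6.50 in long replicates 1 to 5 and 7.15, 6.82, 6.92, 6.96 and 7.07 in short replicates 1 to 5. The groups did not overlap: the highest long conceptus lay below the lowest short one. Group means were 6.59 ± 0.09 (SD, n = 5) and 6.99 ± 0.13 (SD, n = 5), a log2 difference of -0.40 ± 0.08 (SE, 95% interval -0.57 to -0.23, adjusted p = 0.0178 in limma). The conceptus of no recorded length, at 6.94, lay within the short range.

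BCL2, the founding member of the family, gave a divided answer. The 5 probe sets are kept apart here because they rest on 4 different sequence records of the annotation: Bt.13141.1.S1_at and Bt.13141.1.A1_at share 1 record and the other 3 have a record each. The suffix of Bt.18233.1.A1_s_at marks a probe set whose probes match several transcripts.

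Bt.7135.1.S1_at measured 11.54, 11.45, 11.68, 11.59 and 11.61 in long replicates 1 to 5 and 11.89, 11.83, 11.93, 11.93 and 12.08 in short replicates 1 to 5. Every long conceptus lay below every short one. The difference was -0.35 ± 0.07 (log2, SE, 95% interval -0.50 to -0.21, adjusted p = 0.017 in limma), between means of 11.58 ± 0.09 (SD, n = 5) and 11.93 ± 0.09 (SD, n = 5).

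Bt.18233.1.A1_s_at went the other way. It read 6.81, 6.60, 6.66, 6.62 and 6.73 in long replicates 1 to 5 and 6.53, 6.51, 6.35, 6.41 and 6.44 in short replicates 1 to 5, again without overlap. Long conceptuses were higher by 0.24 ± 0.06 (log2, SE, 95% interval 0.10 to 0.38), and the adjusted p of 0.0493 in limma sat just under the threshold. It lost this call when any 1 of 9 conceptuses was left out, all but short replicate 1, with adjusted p up to 0.113 (without long replicate 1), and when arrays were centred on their medians (0.0808). Bt.9742.1.S1_at had the same sign and size, 0.24 ± 0.07 (log2, SE), and missed the threshold at adjusted p = 0.0553 in limma. Its long values were 11.07, 11.09, 10.91, 10.87 and 10.93 and its short values 10.62, 10.78, 10.81, 10.76 and 10.70, so these groups did not overlap either. It did pass with a second quantile normalisation (0.27, adjusted p = 0.034 in limma).

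The remaining BCL2 pair gave no difference past the test. Bt.13141.1.S1_at averaged 6.45 ± 0.13 (SD, n = 5) in long and 6.42 ± 0.11 (SD, n = 5) in short conceptuses, with a 95% interval of the log2 difference from -0.15 to 0.19. Bt.13141.1.A1_at averaged 3.78 in both groups, with an interval from -0.14 to 0.14, and it was dim, in the lowest 25% of probe sets by mean signal. Over the 14 arrays, which share the groups and the normalisation, Bt.7135.1.S1_at ran against Bt.9742.1.S1_at (Pearson r = -0.82, Spearman rho = -0.81) and against Bt.18233.1.A1_s_at (r = -0.75, rho = -0.86), and the latter pair ran together (r = 0.68, rho = 0.71). With the group means removed these Pearson coefficients were -0.47, -0.14 and 0.19. The pair on 1 record had r = -0.57. Their suffixes differ (S1_at and A1_at), and whether both report the same strand was not tested.

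**Figure D1:**
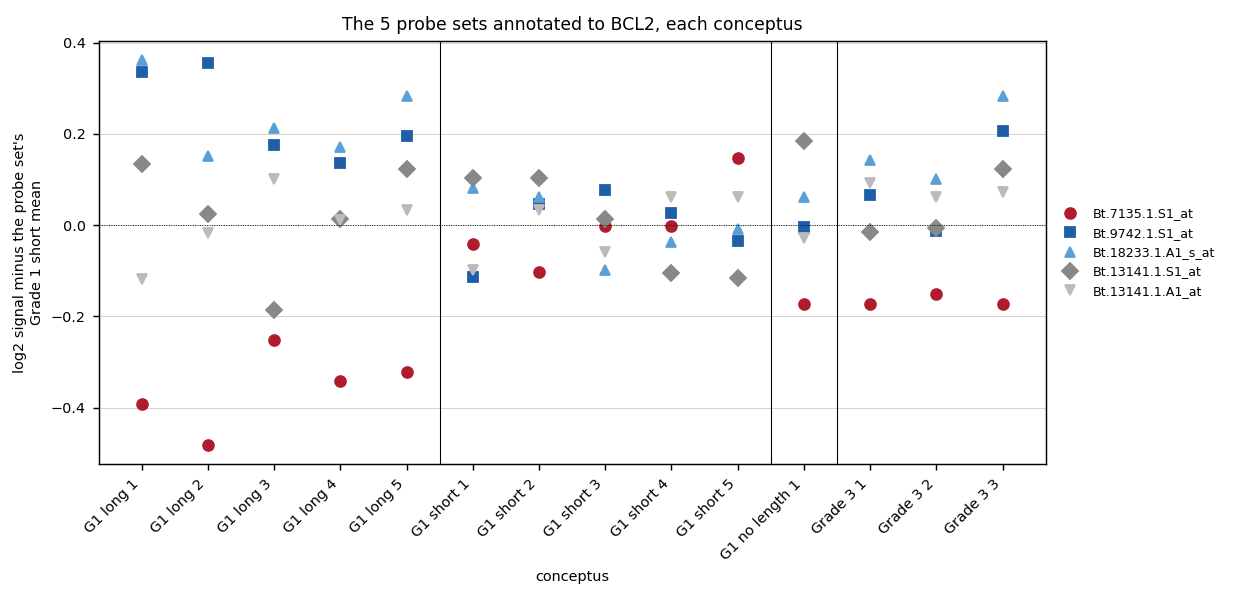
Log2 signal of the 5 BCL2 probe sets in each of the 14 conceptuses (x axis), minus the mean of the same probe set in the 5 Grade 1 short conceptuses (y axis); each symbol is 1 probe set in 1 conceptus. Bt.7135.1.S1_at lies below 0 in all 5 long conceptuses while Bt.9742.1.S1_at and Bt.18233.1.A1_s_at lie above it, and the pair sharing a record scatters around 0.

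MCL1, a short-lived anti-apoptotic protein that binds BAK1, ranged from 9.97 to 10.18 in long and from 10.01 to 10.30 in short conceptuses. The groups overlapped, and the difference of -0.04 had a 95% interval from -0.20 to 0.12 (log2, adjusted p = 0.804 in limma). BAX, the effector that moves from the cytosol to the mitochondrion, ranged from 9.78 to 9.93 and from 9.71 to 10.15. It differed by -0.06 with an interval from -0.24 to 0.13 (log2, adjusted p = 0.77 in limma).

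BAK1, the effector resident in the mitochondrial membrane, read 6.44, 6.57, 6.70, 6.59 and 6.65 in long replicates 1 to 5 and 6.69, 6.65, 6.91, 6.93 and 6.97 in short replicates 1 to 5. Short replicates 3 to 5, all female, stood above all long conceptuses, while replicates 1 and 2, both male, lay within the long range. Long replicate 1, the only male of its group, was the lowest long conceptus. In Grade 3 the males read 6.66 and 6.68 and the female 6.86. Whether BAK1 differed by sex was not tested. The log2 difference was -0.24 ± 0.08 (SE, 95% interval -0.42 to -0.06, unadjusted p = 0.0128 and adjusted p = 0.106 in limma). With sex as a covariate it was -0.29 and passed (adjusted p = 0.0142 in limma).

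CASP9, the initiator caspase of the apoptosome, ranged from 5.94 to 6.30 in long and from 5.92 to 6.30 in short conceptuses. The 2 ranges nearly coincided, and the 95% interval of the log2 difference ran from -0.18 to 0.21 (adjusted p = 0.945 in limma). Taken by overlap alone, 4 of the 10 member probe sets separated long from short conceptuses completely, against 8.42% of all probe sets: BCL2L1 and the BCL2 probe sets Bt.7135.1.S1_at, Bt.9742.1.S1_at and Bt.18233.1.A1_s_at. This rests on short replicate 1, of disputed length, being short. Counted as long, its values in BCL2L1 (7.15), Bt.7135.1.S1_at (11.89) and Bt.9742.1.S1_at (10.62) make these groups overlap. Bt.18233.1.A1_s_at would still separate, at 6.53 against 6.51 in the next short conceptus.

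**Figure D2:**
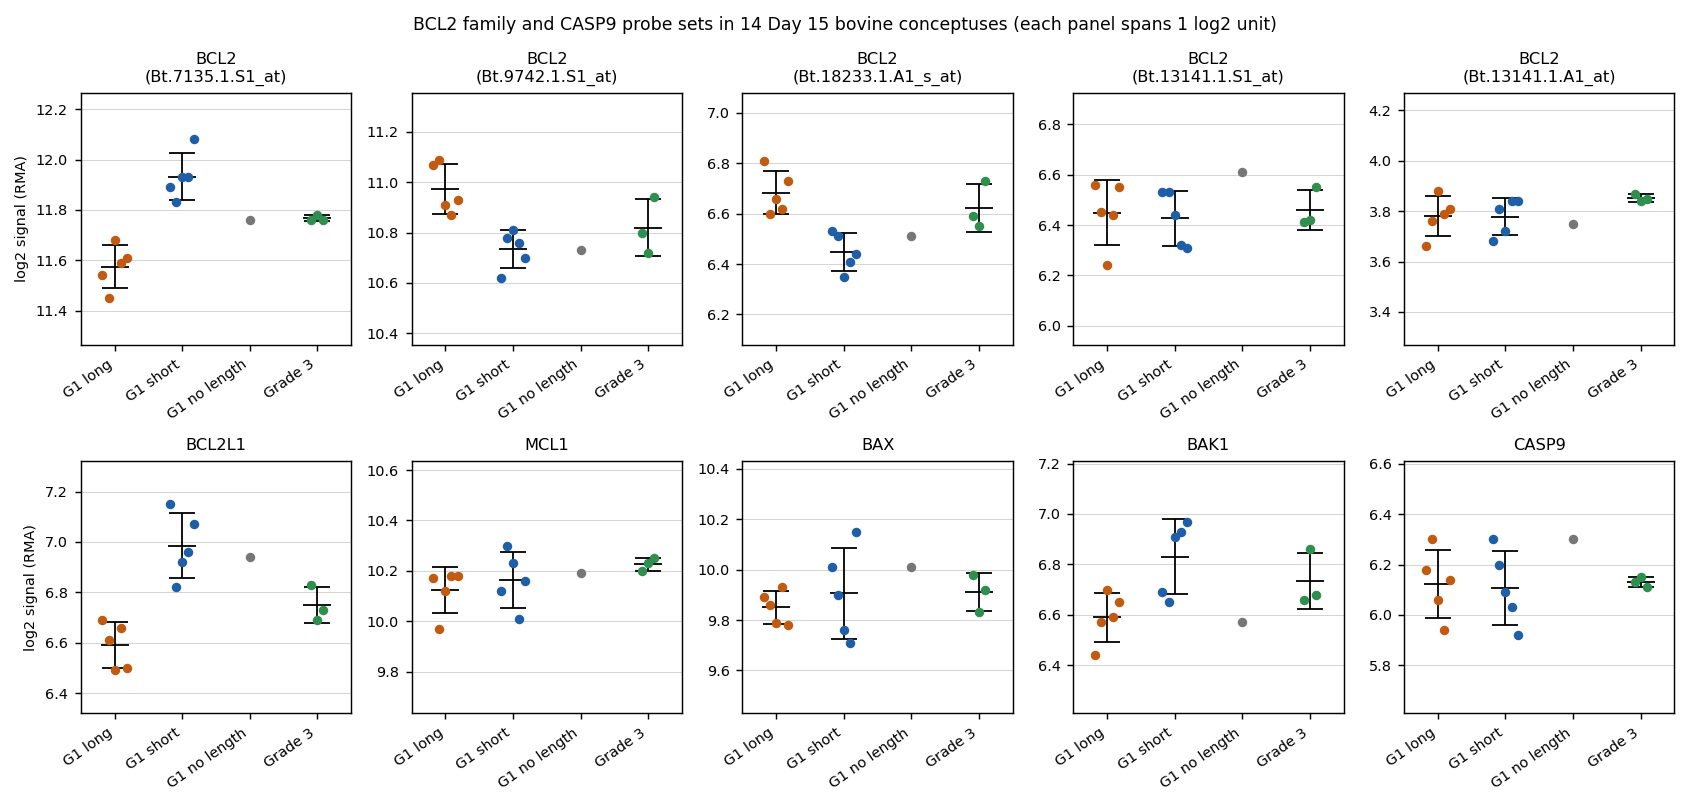
Log2 signal (y axis, 1 log2 unit per panel) of the 10 member probe sets in Grade 1 long (n = 5), Grade 1 short (n = 5), Grade 1 with no length (n = 1) and Grade 3 (n = 3) conceptuses; points are conceptuses and bars the mean and SD. BCL2L1 and Bt.7135.1.S1_at separate long from short conceptuses downward, whereas the groups overlap for MCL1, BAX and CASP9.

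Because the effectors and their inhibitors act against each other, the log2 ratio of an effector to an anti-apoptotic gene was set to 0 at the short mean and described per conceptus, without a test. BAX over BCL2L1 was 0.28 to 0.38 in the 5 long conceptuses, with a mean of 0.34 ± 0.04 (SD, n = 5), and -0.17 to 0.16 in the 5 short ones. All long conceptuses lay above all short ones, and Grade 3 lay between the long and short ranges at 0.22 to 0.27. BAX itself differed by only -0.06 between the lengths, so this ratio largely repeats the BCL2L1 difference. The ratios are of RNA signals, and the proteins were not measured. BAX over BCL2 took either sign by probe set: the long mean was 0.30 with Bt.7135.1.S1_at, -0.30 with Bt.9742.1.S1_at and -0.29 with Bt.18233.1.A1_s_at. BAX over MCL1 averaged -0.02 in long conceptuses. BAK1 over BCL2L1 averaged 0.16 ± 0.18 (SD, n = 5), and its long range, -0.09 to 0.37, overlapped the short range, -0.31 to 0.15. BAK1 over Bt.9742.1.S1_at averaged -0.48 in long conceptuses, with a range of -0.72 to -0.31 below the short range of -0.23 to 0.17. BAK1 over Bt.18233.1.A1_s_at averaged -0.48 as well, with -0.76 to -0.34 against -0.25 to 0.18. These 2 ratios thus lay lower in every long conceptus than in any short one, opposite in direction to BAX over BCL2L1. In these 2 ratios and in BAX over BCL2L1, the conceptus of disputed length lay within the range of the other short ones. Counted as long, it would remove these separations. BAK1 over BCL2 also took either sign by probe set. Over Bt.7135.1.S1_at its long mean was 0.11, with 0.00 to 0.22 in long against -0.09 to 0.10 in short conceptuses. Over Bt.13141.1.S1_at and Bt.13141.1.A1_at it was -0.26 and -0.24, and over MCL1 -0.20, each with overlap of the lengths.

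Bt.7135.1.S1_at and BAK1 also varied together within groups: over 14 arrays r was 0.81, and 0.71 with group means removed. Other pairs ran against each other with group means removed, among them Bt.7135.1.S1_at and CASP9 (-0.76) and BAK1 and Bt.13141.1.S1_at (-0.72). Sex was not removed. Both short males lay below all short females in Bt.7135.1.S1_at and BAK1, and above them in CASP9 and Bt.13141.1.S1_at. The only long male lay within the female range for Bt.7135.1.S1_at and CASP9. The part of sex in these coefficients was not tested. Bt.7135.1.S1_at and BCL2L1 had r = 0.79, but 0.02 with group means removed, so their likeness lay between the groups. BCL2L1 and BAX had r = 0.51, or 0.65 with group means removed. Among named probe sets of other genes, searched because these members passed for length, the patterns most like Bt.7135.1.S1_at over the 14 arrays were those of PHF5A (r = 0.977), CACYBP (0.973) and SEPHS1 (0.970). Those most like BCL2L1 were GATB (0.960), GRPEL2 (0.911) and RPS9 (0.908). For Bt.18233.1.A1_s_at they were POC1B (0.877), FNBP1L (0.876) and CKM (0.874). Because they were picked for their likeness to members that passed for length, their own length differences follow from the choice and are given without a test: -0.43, -0.23 and -0.35 for PHF5A, CACYBP and SEPHS1, -0.46, -0.45 and -0.16 for GATB, GRPEL2 and RPS9, and 0.33, 0.38 and 3.48 for POC1B, FNBP1L and CKM.

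The length calls of BCL2L1 and Bt.7135.1.S1_at held in all 10 fits that left out 1 conceptus (adjusted p in limma up to 0.049 without long replicate 5 and up to 0.0443 without long replicate 2), but not in 3 other fits. With the conceptus of conflicting labels counted as long they were -0.26 and -0.31 (adjusted p = 0.25 and 0.0764 in limma), with the title prefix as a block -0.31 and -0.29 (0.183 and 0.141), and without the 2 short conceptuses of lowest score on the first component (replicates 4 and 5) -0.38 and -0.31 (0.116 and 0.111). The 7 title prefixes have no stated meaning, and 2 of them hold both lengths, 1 with 2 long and 1 short conceptus and 1 with 1 long and 2 short. Within these, long minus short was -0.17 and -0.45 for BCL2L1, -0.33 and -0.24 for Bt.7135.1.S1_at, 0.19 and 0.28 for Bt.18233.1.A1_s_at, 0.30 and 0.13 for Bt.9742.1.S1_at, and -0.14 and -0.22 for BAK1, the same signs as over all 10 conceptuses. The count of 1577 probe sets called for length fell to 655 when long replicate 1 was left out, 532 when it was long replicate 2, 914 when it was long replicate 4 and 510 when it was long replicate 5. It fell to 460 in the absence of short replicate 4 and to 704 in that of short replicate 5.

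Some markers of the cell types in and around a conceptus differed between the lengths as well, while most did not pass in limma. Over all probe sets 6.57% passed. One marker was higher in long conceptuses among 6 measured of 10 trophectoderm genes (TFAP2A), and 1 lower among 3 of 5 epiblast genes (DNMT3B). Among 6 of 8 hypoblast genes APOA1 was higher and PDGFRA lower, by -1.80 ± 0.21 (log2, SE). Of 8 measured of 10 blood and immune genes CD8A was lower, of 6 endothelial genes PECAM1 was higher, and of 6 measured of 8 endometrial and 7 of 8 erythroid genes none was called in limma. The log2 of the summed signal ranged, in long against short conceptuses, from 15.97 to 16.05 against 15.60 to 15.91 for trophectoderm, from 7.60 to 8.33 against 8.07 to 9.0 for epiblast and from 13.28 to 13.55 against 12.86 to 13.21 for hypoblast. It ranged from 7.37 to 8.08 against 7.07 to 7.49 for endometrium, from 7.83 to 8.15 against 8.11 to 8.65 for blood and immune cells, from 7.03 to 7.16 against 7.11 to 7.15 for erythroid cells, and from 6.78 to 7.23 against 6.49 to 6.65 for endothelium. Trophectoderm, hypoblast and endothelial sums thus did not overlap between the lengths. Of all single probe sets 8.42% did not overlap. Such a sum follows its brightest genes and does not give the amount of a cell type. In hypoblast the brightest was APOA1 (mean 12.95, difference 0.59), while GATA4 (-0.11), GATA6 (-0.18), AFP (-0.16) and TTR (-0.11) were negative like PDGFRA. In endothelium PECAM1 stood at 0.99, CDH5, VWF and TEK at 0.12, 0.09 and 0.02, and KDR and TIE1 at -0.19 and -0.12. In trophectoderm IFNT2, KRT18, PAG2 and TFAP2A were positive and KRT8 and ELF5 negative. The part of these shifts in the BCL2L1 and BCL2 differences was not tested.

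The second question was whether conceptuses from Grade 3 embryos differed from those of Grade 1 embryos. No member passed: the adjusted p was 0.999 in limma for all 10 probe sets, and 0 had an unadjusted p under 0.05. Over all probe sets limma called 0.00%, with 1215 (5.06%) at an unadjusted p under 0.05. None of the 10 member probe sets separated the grades, against 0.554% of all. Because every title prefix holds a single grade, prefix and grade cannot be told apart.

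BCL2L1 measured 6.83, 6.69 and 6.73 in Grade 3 replicates 1 to 3. The mean of 6.75 ± 0.07 (SD, n = 3) lay near the 6.80 ± 0.23 (SD, n = 11) of Grade 1, with a 95% interval of the log2 difference from -0.32 to 0.22. This was the widest interval among the members. Bt.7135.1.S1_at read 11.76, 11.78 and 11.76, and averaged 11.77 ± 0.01 (SD, n = 3) against 11.75 ± 0.19 (SD, n = 11), with an interval from -0.22 to 0.25. The 3 Grade 3 conceptuses agreed closely in this probe set, between the long and the short ranges.

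For the other members the log2 differences of Grade 3 from Grade 1 lay between -0.02 (Bt.9742.1.S1_at) and 0.08 (Bt.13141.1.A1_at). MCL1 stood at 0.07 (interval -0.07 to 0.21), BAX at 0.02 (-0.16 to 0.20), BAK1 at 0.04 (-0.18 to 0.26) and CASP9 at 0.00 (-0.19 to 0.18). Grade 3 values of MCL1 were 10.20, 10.23 and 10.25, those of BAX 9.98, 9.83 and 9.92, and those of CASP9 6.13, 6.15 and 6.11. All of these fell inside the Grade 1 range of the same gene.

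Set beside each length separately, Grade 3 lay between long and short conceptuses for several members, and again no member passed. These comparisons share the Grade 3 conceptuses with each other and the Grade 1 conceptuses with the length comparison. Against long conceptuses limma called 0.00% of all probe sets, with 2425 (10.1%) at an unadjusted p under 0.05. Among the members 1 reached an unadjusted p under 0.05, Bt.7135.1.S1_at, at 0.19 ± 0.07 (log2, SE, adjusted p = 0.415 in limma). BCL2L1 stood at 0.16 (adjusted p = 0.507 in limma) and MCL1 at 0.10 (0.674). In these 3 of 10 probe sets all Grade 3 conceptuses lay above all long ones, for BCL2L1 by less than the printed precision, against 7.14% of all probe sets without overlap in either direction.

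Against short conceptuses limma also called 0.00%, with 2054 probe sets (8.55%) at an unadjusted p under 0.05. Here BCL2L1 was the 1 member at an unadjusted p under 0.05, with -0.23 ± 0.09 (log2, SE, adjusted p = 0.556 in limma). Groups did not overlap in 2 of 10 probe sets, against 6.08% of all: Bt.7135.1.S1_at at -0.16 (adjusted p = 0.6 in limma) and Bt.18233.1.A1_s_at at 0.17 (0.585). BAX differed by 0.00, BAK1 by -0.09 and CASP9 by 0.02.

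Ordered by mean, BCL2L1 thus ran from long (6.59) through Grade 3 (6.75) to short (6.99), and Bt.7135.1.S1_at from long (11.58) through Grade 3 (11.77) to short (11.93). In both, the neighbours in this order did not differ past the threshold. Bt.9742.1.S1_at ran the opposite way, from short (10.74) through Grade 3 (10.82) to long (10.98).

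**Figure D3:**
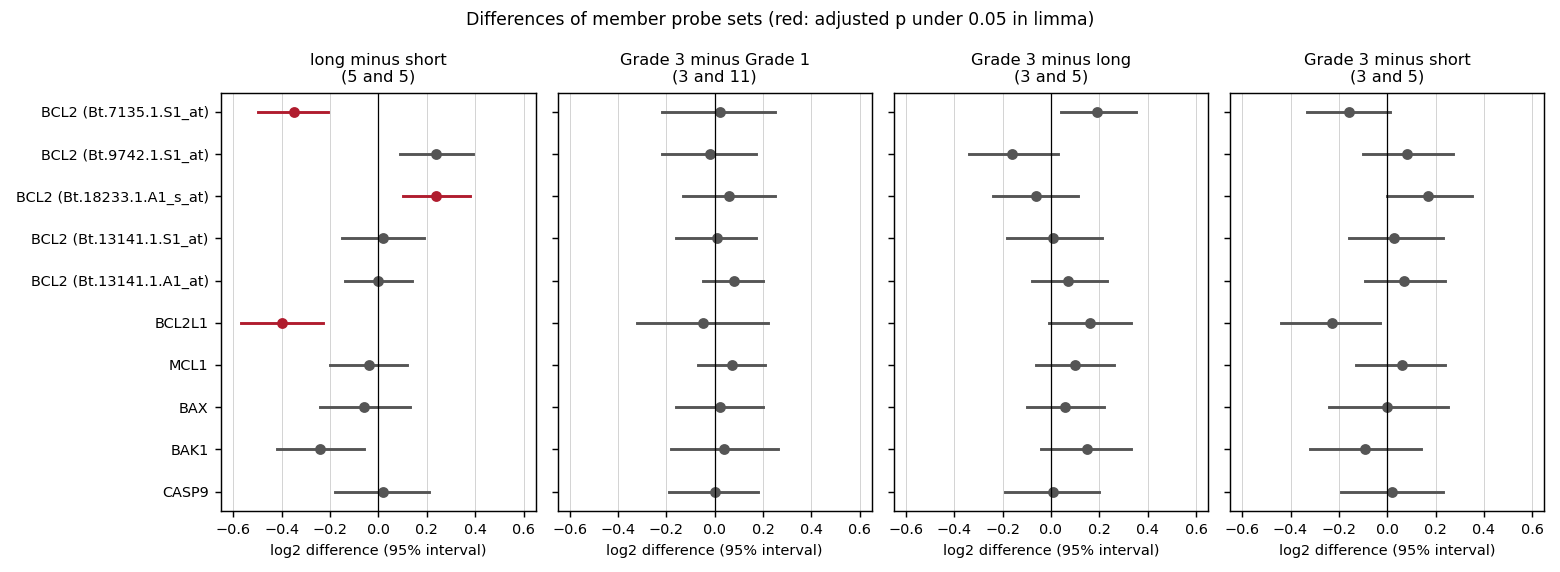
Log2 differences of the 10 member probe sets with 95% intervals from limma (x axis) in 4 comparisons: long minus short, Grade 3 minus Grade 1, Grade 3 minus long and Grade 3 minus short; red marks an adjusted p under 0.05. BCL2L1 and 2 BCL2 probe sets are marked in the length panel and no probe set in the other 3.

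Beyond the members, 48 further apoptosis genes were examined, of which 28 had a probe set, each represented by its brightest. For length 1 was higher, 1 lower and 26 did not pass, so 2 of 28 passed against 6.57% of all probe sets, a share near the background. BIRC3 (cIAP2), a ubiquitin ligase that restrains death signalling from the tumour necrosis factor receptor, read 9.94, 10.14, 9.93, 9.74 and 10.16 in long replicates 1 to 5 and 9.54, 9.67, 9.53, 9.42 and 9.41 in short replicates 1 to 5. The groups were apart, and the difference was 0.47 ± 0.09 (log2, SE, 95% interval 0.27 to 0.66, adjusted p = 0.0174 in limma). Its other probe set gave 0.53 and passed too. BIRC3 kept its call in all 10 fits that left out 1 conceptus, and lost it with the conceptus of conflicting labels counted as long (0.40, adjusted p = 0.0895 in limma), with the prefix as a block (0.41, 0.18) and without the 2 short conceptuses of lowest score (0.40, 0.124).

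ENDOG, a nuclease released from mitochondria, was lower in long conceptuses by -0.25 ± 0.07 (log2, SE, adjusted p = 0.0431 in limma). It read 8.76, 8.55, 8.51, 8.57 and 8.59 in long replicates 1 to 5 and 8.91, 8.73, 8.88, 8.86 and 8.87 in short replicates 1 to 5. The groups overlapped, because long replicate 1 exceeded short replicate 2. The call held without long replicate 1 (0.0409) or short replicate 2 (0.0377) and was lost without any 1 of the other 8 conceptuses, with adjusted p up to 0.0985 without long replicate 2. It was also lost with a second quantile normalisation (0.0595), without the 2 short conceptuses of lowest score (0.2), with the conceptus of conflicting labels counted as long (0.247) and with the prefix as a block (0.35).

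By role, the 4 measured of 6 inhibitor of apoptosis genes all had differences of 0.00 or above, with a median of 0.03, and BIRC3 alone passed. These are the brightest probe sets: the dimmer one of XIAP gave -0.13 and another of BIRC6 -0.11, neither past the test. Of the 4 measured of 6 apoptosome and mitochondrial release genes 3 were negative, with a median of -0.20 against -0.020 over all probe sets: besides ENDOG these were the XIAP antagonists HTRA2 (-0.22) and DIABLO (-0.17), neither past the test, and the second probe set of HTRA2 gave 0.02. Neither BCL2A1 (-0.07) nor BCL2L2 (0.23), further anti-apoptotic proteins, passed, nor did the effector BOK (0.11). Of 9 BH3-only genes 3 were measured and none passed in limma; BNIP3L, a mitophagy receptor, stood highest at 0.42 (unadjusted p = 0.0224).

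Of 6 executioner caspases and targets 4 were measured: CASP6 differed by 0.11, DFFA by 0.09, DFFB by -0.12 and PARP1 by -0.09, none past the test. Among 8 measured of 11 death receptor genes CFLAR, an inhibitor of CASP8 activation, was positive in all 3 of its probe sets at 0.42, 0.56 and 0.65 (adjusted p = 0.111, 0.0576 and 0.0646 in limma), none of which passed. Its adaptor partner FADD stood at -0.19 (adjusted p = 0.186 in limma), and the dimmer probe sets of FADD at -0.07 and -0.02 (0.62 and 0.947). Over the 28 genes the median was 0.03, 18 differences were positive and 10 negative, and 8 of 28 had an unadjusted p under 0.05, against 22% of all probe sets.

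**Figure D4:**
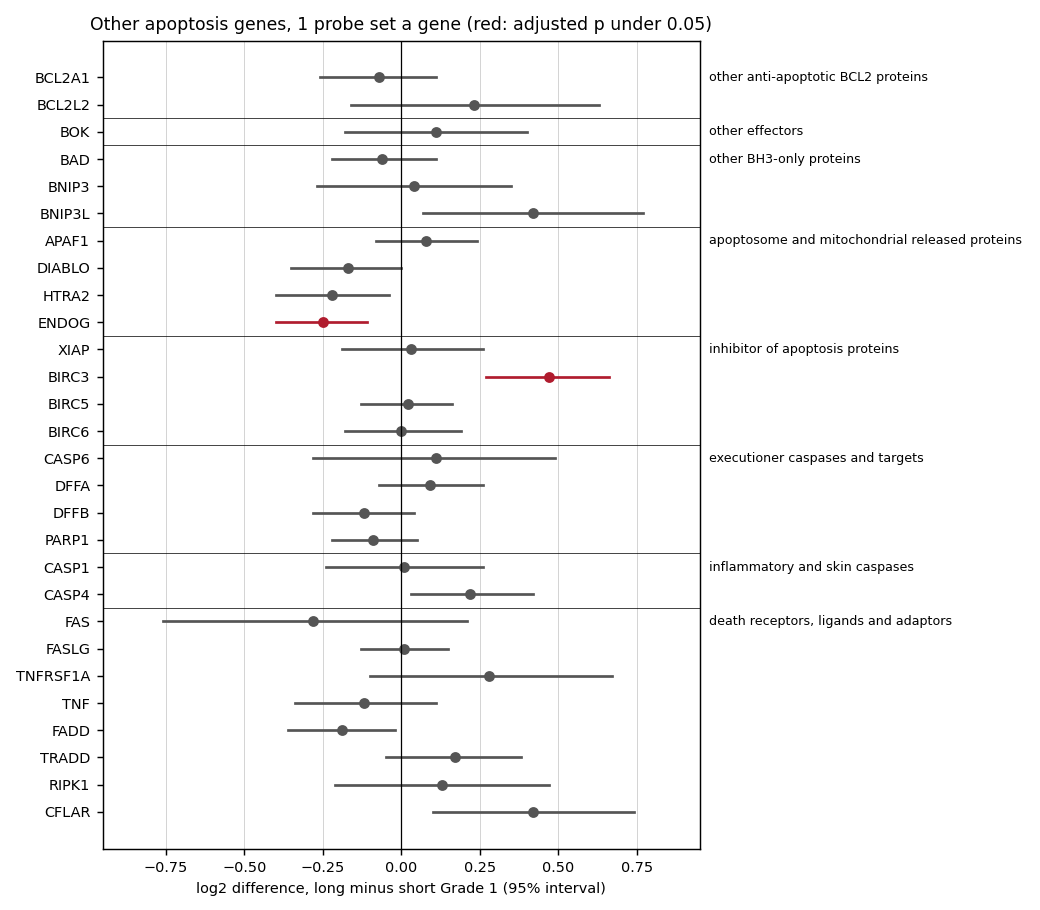
Log2 differences, long minus short Grade 1 conceptuses, with 95% intervals from limma (x axis) for 28 other apoptosis genes grouped by role, 1 probe set per gene; red marks an adjusted p under 0.05. BIRC3 lies to the right and ENDOG to the left, and the other 26 are not marked.

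For grade none of the 28 genes passed in limma, and 3 had an unadjusted p under 0.05, against 5.06% of all probe sets. XIAP, the direct inhibitor of CASP9 and the executioner caspases, stood at 0.39 ± 0.10 (log2, SE, adjusted p = 0.803 in limma), with means of 4.01 in Grade 3 and 3.62 in Grade 1. The BH3-only protein BAD stood at -0.27 ± 0.10 (SE, adjusted p = 0.927 in limma) and BCL2L2 at -0.41 ± 0.19 (SE, 0.981). Of the genes with larger p, APAF1 (0.17) and TNFRSF1A (0.18) came next among the positive differences and HTRA2 (-0.18) among the negative ones. The probe sets of XIAP and APAF1, and that of CASP4 named below, were dim, in the lowest 25% by mean signal.

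Against long conceptuses, Grade 3 differed in none of the 28 genes by limma. Of them 4 had an unadjusted p under 0.05, against 10.1% of all probe sets. They were BCL2L2 (-0.55, adjusted p = 0.345 in limma), BIRC3 (-0.39, 0.349), XIAP (0.37, 0.377) and CASP4 (-0.19, 0.489). Next among the positive differences were APAF1 (0.16) and FADD (0.13). Against short conceptuses Grade 3 differed in none either, with 3 at an unadjusted p under 0.05, against 8.55% of all probe sets. They were XIAP (0.40, adjusted p = 0.485 in limma), HTRA2 (-0.28, 0.552) and APAF1 (0.24, 0.552). BNIP3L (0.32) came next among the positive and BAD (-0.28) and ENDOG (-0.17) among the negative differences. BIRC3 in Grade 3 read 9.73, 9.42 and 9.61, below all long conceptuses and overlapping the short ones.

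**Figure D5:**
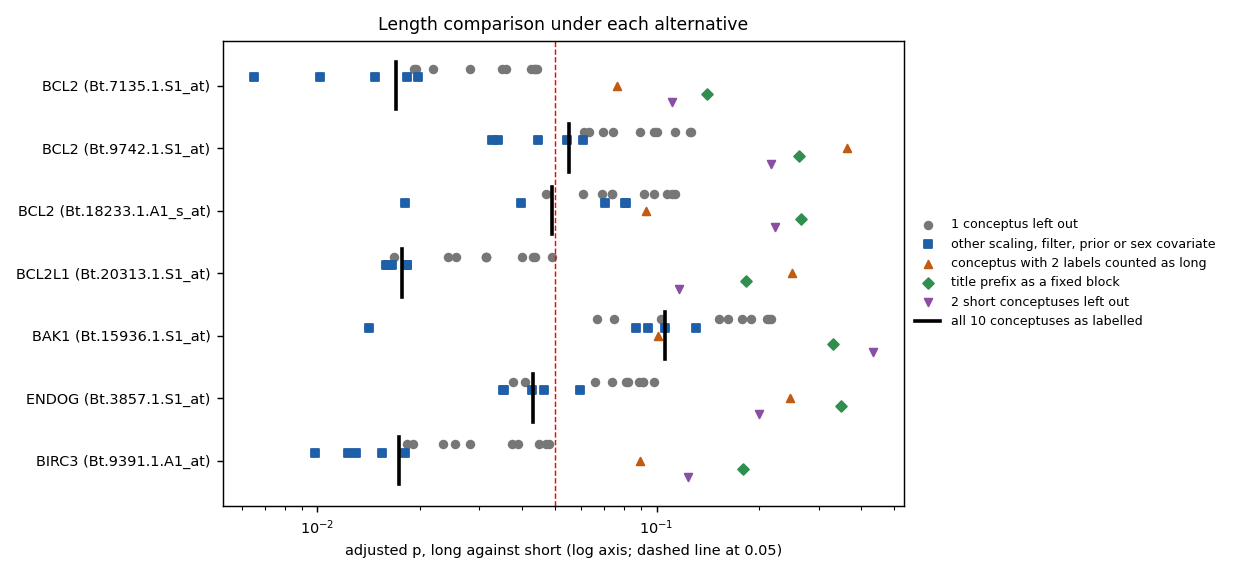
Adjusted p in limma (x axis, log scale, dashed line at 0.05) of the length comparison for 5 member probe sets and the pathway genes ENDOG and BIRC3: all 10 conceptuses as labelled (black line) and each alternative (symbols). BCL2L1, Bt.7135.1.S1_at and BIRC3 stay left of the line in every fit that leaves out 1 conceptus and lie right of it in the 3 fits with other labels, a prefix block or 2 short conceptuses left out.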

How the data were processed

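The authors deposited log2 signals from RMA, run in Affymetrix Expression Console according to the submitters' processing notes. Software versions, and whether all arrays entered 1 normalisation, are not given in the sources used. RMA corrects background, equalises the distributions of the arrays and combines the probes of a set, which compresses small differences at low signal and removes a shift shared by all genes. Of 24128 deposited probe sets 112 controls were left out. In the platform annotation 13292 of the rest had 1 symbol, 86 several and 10638 none.

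Groups came from the labels, which do not say which conceptuses shared a dam or recipient. The p-values set a group difference against the spread within groups and treat conceptuses as independent. They may be too small if conceptuses of a group shared a dam or recipient. The design names 4 Grade 1 conceptuses for its grade comparison without identifying them; all 11 were used. limma 3.58.1 (lmFit, eBayes) in R 4.3.3 was fitted per comparison on all 24016 probe sets, two-sided, with Benjamini-Hochberg adjustment and a threshold of 0.05, and was tested on simulated data. The number of arrays limits the precision. Alternatives were each conceptus left out, centring, a second quantile normalisation, a filter on the lowest 25% of signal, a trended prior, sex as a covariate, the title prefix as a block, other labels for the conceptus in dispute, equal weights for the lengths and, added after seeing the data, 2 short conceptuses left out. All members were named; of the 48 pathway genes, those that passed or otherwise the 3 of smallest p in each direction per comparison, and others by role chosen after their values were seen. Patterns like a member's were the 3 of highest Pearson r for each member that passed for length. Members and lists were chosen with earlier results of these data known.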

Additional observations from a re-analysis of the deposited data

Results flagged for a closer look

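In 3 of 42 group checks of members and named pathway genes, 1 conceptus stood far from the others of its group, by a gap over 0.71 of the group's range; chance gives about 1 in 20. ENDOG was lowest in Grade 1 short replicate 2, at 8.73 against 8.86 to 8.91 in the other 4, a gap of 0.74 of the range. XIAP, in its brighter but dim probe set, was lowest in Grade 1 short replicate 1, the conceptus with conflicting length labels, at 3.32 against 3.67 to 3.70 (0.94 of the range). BAD was lowest in Grade 1 long replicate 4, at 7.19 against 7.28 to 7.31 (0.77). No member probe set stood out in this way.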

How the results depend on the processing

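Of the 1577 probe sets called for length, the count became 2403 with sex as a covariate (963 higher in long, 1440 lower), 492 with the disputed conceptus counted as long (270 and 222), 112 with the title prefix as a block (64 and 48) and 51 without the 2 short conceptuses lowest on the first component (24 and 27), and 460 to 1697 with 1 conceptus left out. The 3 member probe sets called became 4 with sex as a covariate and 2 to 3 with 1 conceptus left out. They became 0 with the disputed conceptus counted as long, 0 with the title prefix as a block and 0 without the 2 short conceptuses. For grade, where 0 probe sets were called, 0 to 2 were called with 1 conceptus left out (2 without Grade 3 replicate 1, 1 without long replicate 5), and 0 to 6 for Grade 3 against long (6 without long replicate 3). No member was among them. Centring moved the median length difference of all probe sets from -0.020 to -0.038, and a second quantile normalisation to -0.014.

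BCL2L1 and Bt.7135.1.S1_at kept their sign in all 18 alternatives and their call in 15. Bt.18233.1.A1_s_at and Bt.9742.1.S1_at kept their sign in all 18; each was called in 3. Bt.9742.1.S1_at passed with the dim filter (adjusted p = 0.0446 in limma) and the trended prior (0.0326), and Bt.18233.1.A1_s_at did not with a second quantile normalisation (0.0706) or the trended prior (0.081).

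Differences near 0 changed sign in several alternatives, and none of them was called. For length, Bt.13141.1.S1_at was -0.08 with the prefix block and -0.05 without the 2 short conceptuses. Bt.13141.1.A1_at was -0.02 with sex, -0.02 centred and -0.04 with the disputed conceptus as long. BAX was 0.01 with the prefix block, and CASP9 0.00 centred and -0.07 without the 2 short conceptuses. With 1 conceptus left out, Bt.13141.1.A1_at ran from -0.02 to 0.03, Bt.13141.1.S1_at from -0.01 to 0.07, BAX from -0.10 to 0.00 and CASP9 from -0.03 to 0.07.

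For grade, Bt.13141.1.S1_at was -0.03 with sex and 0.00 centred, BAX -0.01 with sex, and CASP9 0.00 with a second quantile normalisation and 0.01 with equal weights. With 1 conceptus left out, Bt.13141.1.S1_at ran from -0.04 to 0.03, BAK1 from -0.02 to 0.08, BAX from -0.02 to 0.06, CASP9 from -0.02 to 0.01, Bt.7135.1.S1_at from -0.01 to 0.05 and Bt.9742.1.S1_at from -0.08 to 0.02. For Grade 3 against long, Bt.13141.1.S1_at was -0.03 and CASP9 -0.01 with sex, and with 1 conceptus left out they ran from -0.04 to 0.04 and from -0.04 to 0.05. For Grade 3 against short, Bt.13141.1.S1_at was 0.00 with sex, BAX -0.02 with sex and -0.02 centred, and CASP9 -0.02 with sex; with 1 conceptus left out they ran from -0.01 to 0.06, from -0.04 to 0.06 and from -0.03 to 0.07. The cause of these changes was not tested.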
